A study of Caenorhabditis elegans with 4 samples.

Results

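The genes described here encode the cuticle collagens of Caenorhabditis elegans. They were chosen by name: every gene called col followed by a number, and 18 collagen genes named for the mutant shape of the worm, such as dumpy (dpy), squat (sqt), roller (rol) and blister (bli). The gene table held 177 such genes, of which 176 were measured (158 numbered col genes and 18 named for a phenotype), out of 20040 genes on the array. The 1 that was not measured, col-136, is a pseudogene. In all, 3 of the 177 are listed as pseudogenes, and 2 of these are among the 176 measured. The name rule also takes in col-99, which encodes a transmembrane collagen and not a cuticle protein.

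Cuticle collagens are secreted by the epidermis and assembled, layer by layer, into the exoskeleton that encloses the worm. Each is a short chain with stretches of the repeat Gly-X-Y, in which prolines are hydroxylated before chains wind into triple helices. The first cuticle is made late in embryogenesis and a new one at every molt, and different collagens are known from different stages and different structures: furrows, annuli, the struts of the adult cuticle.

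RNA came from early embryos of the wild-type strain N2, collected by bleaching gravid adults grown in liquid culture. There was 1 group of 4 samples, replicates 1 to 4, each from its own embryo preparation, with no treatment, mutant or other stage beside it. Each sample was labeled and hybridized alone to a NimbleGen array that carries 3 probes for each collagen transcript. The embryos of a preparation were a mixture of stages, pooled from many worms, and all epidermal and other cells were lysed together.

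Values are log2 of the deposited intensity, so that a difference of 1 is a 2-fold difference. The median intensity of all transcripts was 351, 345, 335 and 313 in replicates 1 to 4. With 4 arrays, precision is set by their number. Across all genes the samples had Pearson correlations of 0.968 to 0.992, highest for replicates 1 and 2 and lowest for replicates 3 and 4, and these last samples stood apart for many collagens. Because the 4 samples form 1 group, no test between conditions exists, and every difference given is one between samples of that group. Oocyte and maternal markers were high in all samples (10 of 10 above the reference level defined in the next paragraph), as were epidermal markers (8 of 8). Probes of different genes bind RNA with different strength, so levels of different genes are set side by side only as a description. Probes of closely similar collagens, such as col-12 and col-13, may share RNA. That sharing was not tested.

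The files carry no call of presence, so a reference level was taken from 1343 genes of 22 families of serpentine receptors, most of which act in few chemosensory neurons. It is the 97.5th percentile of those genes in each sample: log2 8.47, 8.59, 8.70 and 8.70 in replicates 1 to 4. A gene counts as above it only when it exceeded it in each of the 4 samples.

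Most cuticle collagens were low in early embryos, and a small set was high. Only 11 of the 176 collagens (6.25%) were above the reference level, against 42% of all 20040 genes. They were dpy-17, sqt-3, dpy-14, dpy-7, col-76, col-155, dpy-10, col-154, col-99, col-71 and col-168. Without replicate 3 there were 14, with dpy-2, dpy-3 and col-74 added. A further 13 exceeded it in 1 to 3 samples, against 1289 of all 20040 genes, and 152 exceeded it in none, against 10330. The median collagen had a mean log2 value of 5.72 over the 4 samples, against 7.82 for the median gene, and the collagens spanned 4.15 to 13.03. In each sample the median collagen lay well under the median gene: 5.92, 5.76, 6.01 and 5.53 against 7.92, 7.92, 7.91 and 7.82, a mean of 5.80 ± 0.21 (SD, n = 4) for the collagens. When all genes were ranked into 5 bins of 4008 by mean level, from lowest to highest, the bins held 55, 75, 35, 10 and 1 collagens. The 1 in the highest bin was dpy-17.

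**Figure D1:**
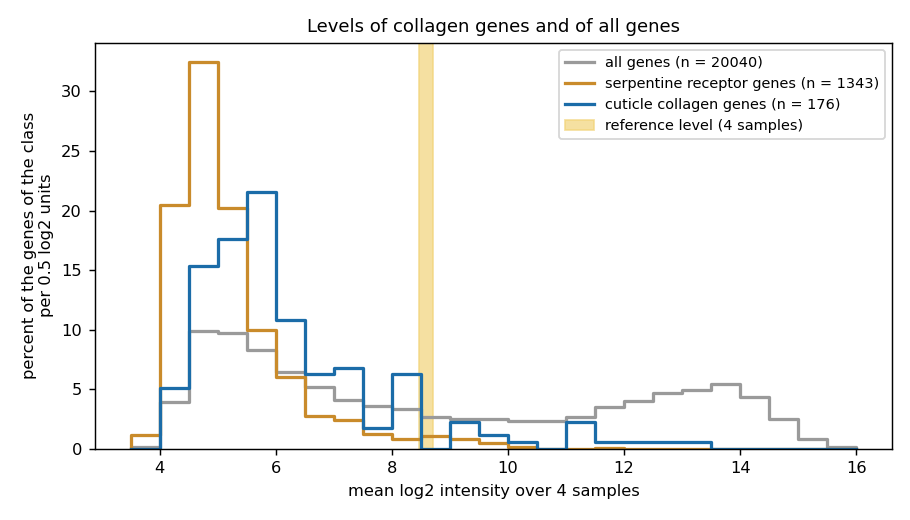
Mean log2 intensity over the 4 samples (x axis) against the percent of genes of each class per bin of the axis (y axis), for 176 cuticle collagens, 1343 serpentine receptor genes and all 20040 genes. The band spans the reference levels of the 4 samples, 8.47 to 8.70, and most collagens lie to the left of it with a thin tail to 13.03.

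Collagens named for a phenotype were above the reference level in 5 of 18 cases and numbered col genes in 6 of 158. The highest collagen of the array was dpy-17, at log2 13.14, 13.12, 12.58 and 13.28 in replicates 1 to 4. Its partner sqt-3 came next, at 12.97, 13.12, 11.66 and 12.95. The proteins of this pair are known to be secreted and assembled together, so the 2 collagens at the top of the list belong to one assembly. Even the lowest value of the pair, 11.66, lay far above the reference level of 8.70 in that sample. The replicates differed by 1.62-fold from highest to lowest for dpy-17 and by 2.74-fold for sqt-3, with replicate 3 the lowest for both. The third, dpy-14, another collagen whose loss leaves a short worm, gave 12.14, 12.39, 11.49 and 12.64.

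The furrow collagens, which form the circumferential grooves of the cuticle, ran from among the highest collagens to the low end. The highest was dpy-7, at 12.24, 11.71, 10.81 and 12.01, followed by dpy-10 at 11.53, 11.50, 10.94 and 11.11. These 2 of the 6 furrow collagens were above the reference level in each sample. The next, dpy-3, gave 10.70, 10.20, 8.60 and 10.09, and dpy-2 gave 9.49, 9.46, 8.06 and 9.24. Both exceeded the reference level in replicates 1, 2 and 4 and fell short of it in replicate 3. For dpy-8 the values were 6.38, 6.77, 6.997 and 9.37, so that only replicate 4 exceeded the level. The lowest, dpy-9, lay between 5.21 and 6.28 in the 4 samples. Although the 6 proteins are needed for the same structure, their probes thus covered mean levels from 5.54 to 11.69.

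The other shape collagens were under the reference level in every sample. Of the collagens of the annuli, the ridges between furrows, dpy-13 gave nearly the same value in each sample, 6.57, 6.54, 6.49 and 6.49, and dpy-5 gave 4.66, 4.47, 5.32 and 4.59. The remaining dumpy collagen, dpy-4, had a mean of 5.21 ± 0.29 (SD, n = 4). ROL-6 and SQT-1 are partner collagens whose altered forms twist the worm. Their genes gave 5.55, 5.42, 6.27 and 5.43 for rol-6 and 5.24, 5.49, 6.83 and 5.50 for sqt-1, both highest in replicate 3. Means were 7.48 for rol-8 and 5.39 for sqt-2, although the transcripts of rol-8 disagreed and the higher of them had a mean of 8.65. The blister genes bli-1 and bli-2, whose products form the struts of the adult cuticle, had means of 6.60 and 5.53.

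**Figure D2:**
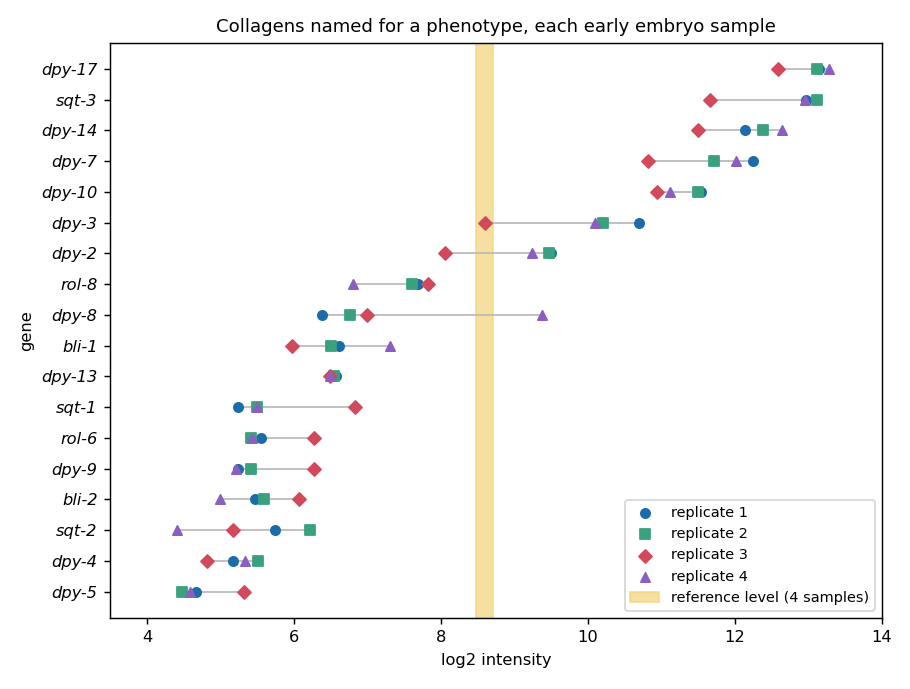
Log2 intensity (x axis) of the 18 collagens named for a phenotype (y axis, ordered by mean) in each of the 4 samples, 1 marker per replicate with a line from lowest to highest; the band spans the reference levels of the samples. The 7 genes at the top have their lowest marker in replicate 3, down to 8.06 for dpy-2, whereas dpy-8 crosses the band in replicate 4 at 9.37.

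Among the numbered col genes, col-76 was the highest in replicates 1, 2 and 4, at 12, 11.85 and 12.03, and far lower in replicate 3, at 9.89. The 4 samples thus spanned 4.42-fold. Then came col-155 at 11.40, 10.99, 11.61 and 11.36 and col-154 at 10.97, 10.99, 11.28 and 10.85. In contrast to col-76, both were highest in replicate 3, and their samples spanned only 1.54-fold and 1.34-fold. The smallest span of the 11 was that of col-71, at 9.71, 9.68, 9.87 and 9.61, or 1.20-fold. The transmembrane collagen col-99 gave 10.36, 10.36, 9.37 and 10.22, lowest in replicate 3. The last of the 11, col-168, was lowest in replicate 1 and highest in replicate 4, at 8.94, 9.42, 9.46 and 9.99.

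Just under the requirement, col-74 exceeded the reference level in all but replicate 3 (9.58, 9.39, 8.35 and 9.55) and col-84 in all but replicate 4 (9.71, 9.15, 9.27 and 8.63). Both col-121 and col-63 exceeded it in 2 samples. The 7 that did so in 1 sample were col-157, col-176, col-111, col-38, col-135, dpy-8 and col-144. Over all genes, 1289 of 20040 exceeded it in 1 to 3 samples. The choice of a 97.5th percentile therefore sets the length of the list: at the 95th percentile 19 collagens were above the level, against 46.4% of all genes.

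Collagens known from other stages were low in all samples. The adult collagen gene col-19 gave 4.88, 4.64, 5.05 and 5.53, and col-7, also known from adults, 4.11, 4.45, 4.57 and 5.53. For col-2, known from the dauer larva, the values were 5.95, 6.02, 5.18 and 5.78. None of these came near the reference level in any sample, and the adult pair was highest in replicate 4. The closely similar col-12 and col-13 gave means of 6.30 and 5.96, and col-10 a mean of 5.58 with 7.09 in replicate 4. The 5 lowest collagens, col-122, col-152, col-131, col-33 and col-167, had means of 4.15 to 4.35.

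**Figure D3:**
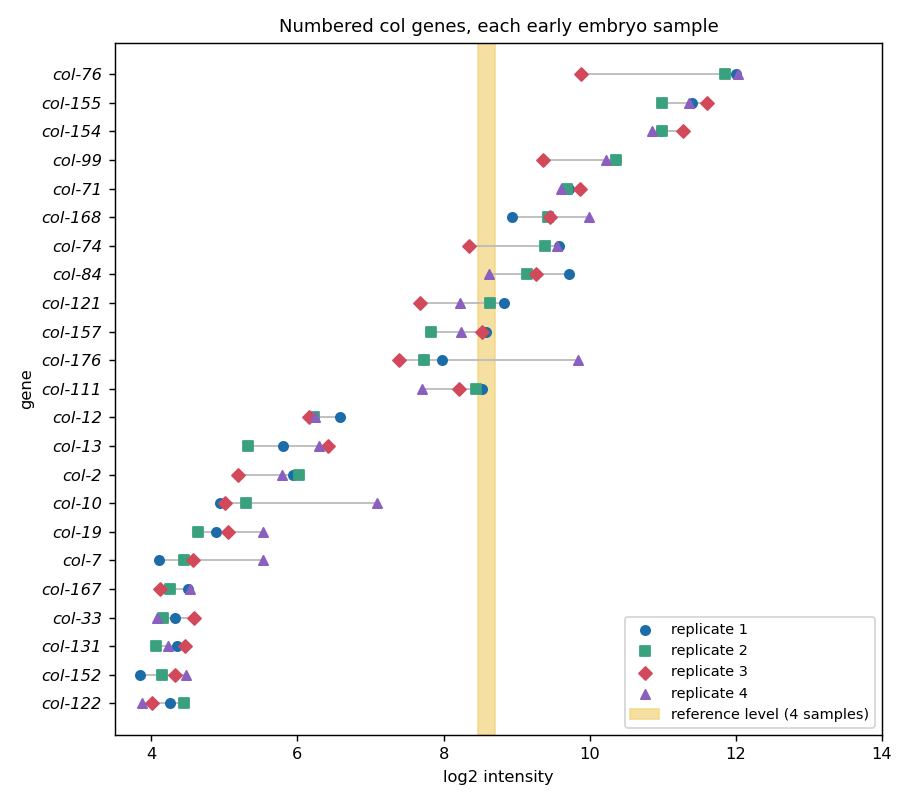
Log2 intensity (x axis) of the 12 highest and 5 lowest numbered col genes and of 6 col genes chosen from textbook knowledge (y axis, ordered by mean), 1 marker per replicate with a line from lowest to highest; the band spans the reference levels. The adult genes col-19 and col-7 stay at or under 5.53 in every sample, and the marker of replicate 3 for col-76 stands apart at 9.89.

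Collagen genes lie on all chromosomes, some of them next to each other. The 11 collagens above the reference level were spread as 1 of 24 on chromosome I, 3 of 32 on II, 1 of 13 on III, 1 of 44 on IV, 3 of 32 on V and 2 of 31 on X. In the order of protein-coding genes of assembly WBcel235, 48 collagens stood in 20 runs of direct neighbours, of which 15 were pairs. Only 1 run held a collagen above the reference level. It was also the longest, the 5 genes from col-167 to col-171 on X, in which col-168 had a mean of 9.45 and its neighbours 4.35 to 5.18. Counts by chromosome and by run were not made for other genes.

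Collagens differed more between the 4 samples than the typical gene did. The highest sample exceeded the lowest by over 2-fold for 103 of 176 collagens (58.5%), against 35.7% of all genes, and the median SD was 0.50 for collagens and 0.35 for all genes. Without replicate 4 the count was 46, against 15.5% of all genes. Most collagens are low, and low genes vary more on these arrays, so the bins are the closer comparison. In the lowest bin 24 of 55 collagens spanned over 2-fold, against 48.6% of the genes there, and in the next 50 of 75 against 62.4%. At these low levels the collagens thus spread about as much as other genes. In the middle bin the counts were 24 of 35 collagens against 50.6%, and in the one above 5 of 10 against 15%. Of the 11 collagens above the reference level, 5 spanned over 2-fold, against 8.5% of all genes above it: sqt-3, dpy-14, dpy-7, col-76 and col-168.

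The spread was not the same for each pair of samples. Between replicates 1 and 2, 15 collagens were over 2-fold apart in either direction (8.52%), against 4% of all genes. Between replicates 1 and 3 there were 25 (14.2%, against 8.74%), and between 2 and 3 also 25 (14.2%, against 9.46%). Pairs with replicate 4 held the most: 50 with replicate 1 (28.4%, against 17.6%), 51 with replicate 2 (29%, against 17.2%) and 68 with replicate 3 (38.6%, against 20.8%). Replicates 1 and 2 were thus the closest pair for collagens and for all genes, with a Pearson correlation across the 176 collagens of 0.958. Replicates 3 and 4 were the farthest apart, with 0.822. Genes are not independent replicates, and all pairs share samples. The shares by pair were not matched for level, and most collagens are low genes, which vary more.

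**Figure D4:**
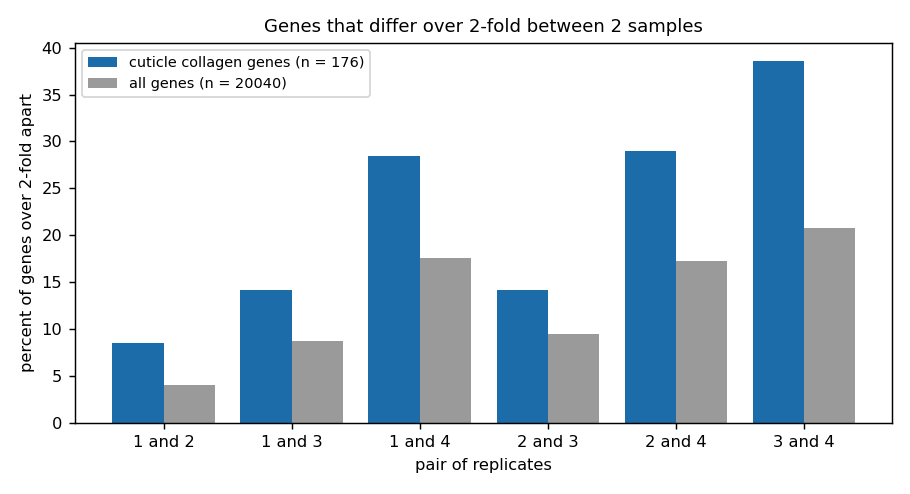
Percent of genes over 2-fold apart in either direction (y axis) for each pair of replicates (x axis), for 176 cuticle collagens and all 20040 genes; bars have no error because each is a single count. The collagen bar is higher in each pair, from 8.52% against 4% for replicates 1 and 2 to 38.6% against 20.8% for replicates 3 and 4. The bars are not matched for level, and most collagens are low genes.

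Replicate 3 stood apart in the high collagens. Of the 11 above the reference level, 7 were lowest in replicate 3, against 30.5% of all genes above it: dpy-17, sqt-3, dpy-14, dpy-7, col-76, dpy-10 and col-99. Another 3 were highest there, against 43%: col-155, col-154 and col-71. Set against single samples, replicate 3 was over 2-fold lower than replicate 1 for 3 of the 11 (2.51% of all genes above the level), than replicate 2 for 2 (2.57%) and than replicate 4 for 4 (3.02%). The median deviation of the 11 from their own means was 0.11, 0.09, -0.45 and 0.25 in replicates 1 to 4. Over all genes above the reference level it lay within 0.053 of 0 in each sample. In a lysate of whole embryos, fewer epidermal cells and less collagen RNA per cell cannot be told apart.

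Counting collagens of any level, 6 were over 2-fold lower in replicate 3 than in each of the other 3 samples (3.41%, against 1.61% of all genes): sqt-3, col-76, dpy-3, dpy-2, col-74 and col-119. The last was low throughout, at 7.27, 7.01, 5.24 and 6.45. In the other direction 4 collagens were over 2-fold higher in replicate 3 than in each other sample (2.27%, against 0.669%): sqt-1, col-37, col-68 and col-175. All 4 remained under the reference level, with 7.78 for col-68 as the highest of their values. The collagens low in replicate 3 were therefore mostly high genes and those high in it low genes, and over all 176 the median deviation in replicate 3 was 0.10.

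Several lists of genes of the epidermis and of extracellular matrix were low in the same sample. The cuticlins as a list were not, but 0 of 6 of them were above the reference level. Epidermal markers, of which 8 of 8 were above the reference level, had a median deviation of -0.84 in replicate 3 and were lowest there in 6 of 8 cases. That list includes the collagen dpy-7. The exceptions were elt-1, which encodes an early GATA factor of the epidermal fate, at 10.80, 10.95, 10.94 and 10.60, and che-14, at 9.83 in replicate 3 and 9.64 in replicate 4. The summed level is not given because probes differ between genes: the per-sample median of the 8 markers was 12.28, 12.20, 10.96 and 12.18. These markers share vab-10 with the matrix genes below, and lin-26, elt-1, elt-3 and nhr-25 with the epidermal regulators below. The lists are therefore not independent. Muscle markers deviated by a median of -0.86 in replicate 3, with 2 of 6 above the reference level, whereas oocyte and maternal markers deviated by 0.10, with 10 of 10 above it. Neuron markers deviated by 0.02 there (3 of 5 above), intestine markers by -0.15 (2 of 9) and sperm markers by 0.02 (3 of 8). Their part in the low collagens of replicate 3 was not tested.

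Replicate 4 stood apart in the low collagens. It was the lowest of the 4 samples for 77 of 176 collagens, against 31.6% of all genes, and the median deviation of the collagens in it was -0.16. It was over 2-fold lower than each other sample for 17 collagens (9.66%, against 2.81%), all numbered col genes with means of 5.35 to 7.30, among them col-105 at 5.71, 6.01, 6.25 and 4.06. It was over 2-fold higher than each other sample for 13 (7.39%, against 6.09%). The share of low calls was thus the one farther from that of all genes. Both shares are set against genes of all levels, and low genes vary more on these arrays. With the median of the 200 other genes nearest in level subtracted, the median deviation of the collagens in replicate 4 was -0.21. The serpentine receptor genes moved the other way, with a median of 4.74, 4.74, 4.81 and 5.41 in replicates 1 to 4. That shift and the low collagens occur in the same sample, and its part in them was not tested.

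A few collagens exceeded the reference level in replicate 4 alone, and how many of all genes did so was not counted. The widest range of all 176 was that of col-144, at 4.45, 3.97, 4.82 and 9.45, so that its highest sample exceeded the lowest by 44.6-fold. The next widest was that of the furrow collagen dpy-8, at 9.37 in replicate 4 against 6.38 to 6.997. The third widest, col-182, stayed under the level with 7.79 in replicate 4, and col-176 followed at 7.98, 7.73, 7.39 and 9.84. The last of the 4 that exceeded the level there alone, col-135, was at 8.96 in replicate 4 and at 7.66 to 7.86 in the others. As each rests on 1 array with 3 probes, there is no replicate for them.

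**Figure D5:**
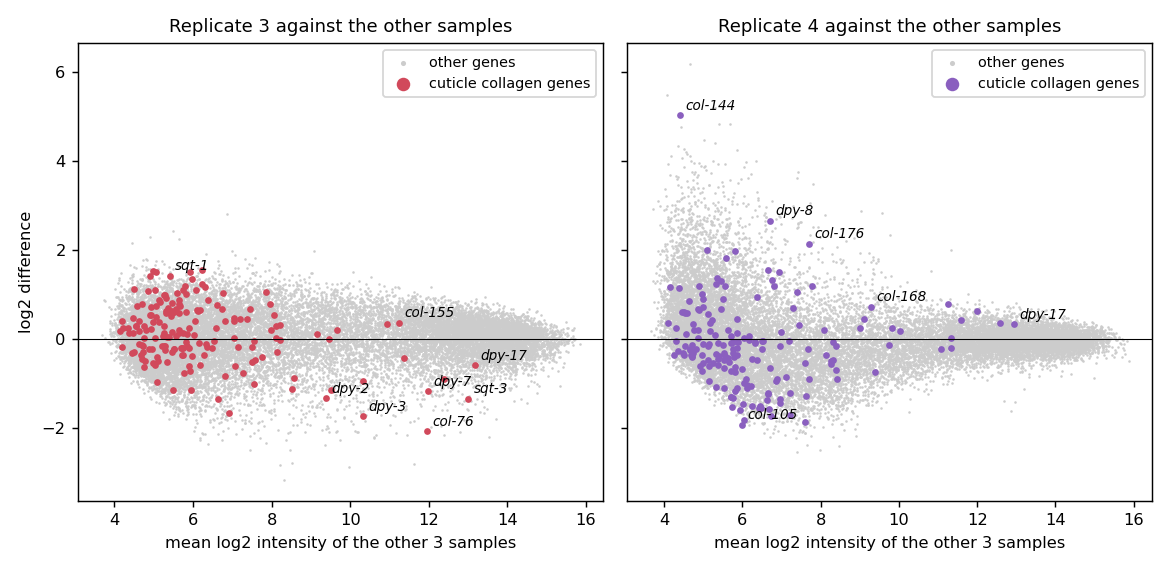
Log2 value in replicate 3 (left) or replicate 4 (right) minus the mean of the other 3 samples (y axis) against that mean (x axis), 1 point per gene, with cuticle collagens in color over all other genes in grey. In replicate 3 high collagens such as sqt-3 and col-76 lie below 0, and in replicate 4 the scatter is widest among low genes, with col-144 at 5.04.

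Replicates 1 and 2 had few collagens of their own. No collagen was over 2-fold higher in replicate 1 than in each other sample (0.165% of all genes were) or over 2-fold lower (0.309%). In replicate 2, col-35 was higher (0.15% of all genes) at 5.42 against 4.32 to 4.42, and col-93 was lower (0.364%) at 4.14 against 6.15 to 6.40.

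Of 16 genes for enzymes that make, cleave or crosslink collagen and their partners, 10 were above the reference level and 6 exceeded it in no sample. The highest of the list, genes of the endoplasmic reticulum, were near the top of the array. The disulfide isomerase genes pdi-1, pdi-2 and pdi-6 had means of 15.24, 15.12 and 15.08, and dpy-11, a thioredoxin-like protein, 15.24. Other modifying enzymes were lower. The catalytic subunits of prolyl hydroxylase, dpy-18 and phy-2, had means of 13.97 and 12.05. These enzymes act on other secreted proteins or other collagens too. Of the proteases, bli-4, a subtilisin-like protease, had a mean of 12.42 and dpy-31, the astacin protease that is known to cleave SQT-3, 9.21, both above the level. Another astacin gene, nas-37, was under it, at 5.21, 5.40, 4.68 and 5.46. The others at a similarly low level were phy-3, a further prolyl hydroxylase gene, and the protease inhibitor gene bli-5, with means of 4.995 and 5.04. The dual oxidase bli-3, which crosslinks collagens through tyrosines, had a mean of 10.33, whereas its partners tsp-15 and doxa-1 had 6.11 and 6.25 and the peroxidase mlt-7 had 7.51, under the level in each sample. The group's median deviation in replicate 3 was -0.12. Of the 16, 8 were lowest in replicate 3 and 7 in replicate 4, against 26.5% and 31.6% of all genes. The genes lowest in replicate 3 included phy-2 at 12.27, 12.30, 11.13 and 12.51 and let-268, a lysyl hydroxylase, at 11.59, 11.86, 10.60 and 12.11. The gene bli-3 gave 9.69 in replicate 3 and 10.45 to 10.67 in the others. There tsp-15 and doxa-1 differed by -1.11 and -1.19 (log2) from the mean of the other samples. The widest difference of the group went the other way, with phy-3 at 6.61 in replicate 3 and 4.22 to 4.66 in the others.

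The matrix that covers the embryo before its cuticle, with the proteins that attach it to the epidermis, was high throughout. All 9 listed genes were above the reference level and all 9 were lowest in replicate 3, with a median deviation there of -0.96. The zona pellucida proteins noah-1 and noah-2 gave 13.07, 13.35, 11.89 and 13.26, and 14.48, 14.40, 13.05 and 14.60. The fibrillin-like fbn-1 gave 13.25, 13.41, 12.13 and 13.27. In each of these genes, as in sqt-3, replicates 1, 2 and 4 lay close together and replicate 3 apart. The collagens of basement membranes, which are not cuticle proteins, were likewise lowest in replicate 3: emb-9 gave 11.90, 11.38, 9.78 and 11.58 and let-2 gave 12.995, 12.74, 10.69 and 12.64. Both encode chains of type IV collagen.

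Cuticlins, the insoluble proteins of the cuticle beside the collagens, were above the reference level in 0 of 6 cases, with cut-1 the highest at a mean of 8.45. Their median deviation in replicate 3 was 0.26, and 1 of the 6, cut-5, was lowest there. Of 9 regulators of epidermal fate or molting with a value, 6 were above it: lin-26, nhr-23, elt-6, nhr-25, elt-3 and elt-1. Among them lin-26 was nearly level, at 14.51, 14.56, 14.22 and 14.49, and elt-3 was not, at 12.18, 12.35, 10.99 and 12.25. Of the 7 markers of the adult cuticle or of molting, 5 are collagens and lay under the level. The other 2, mlt-10 and mlt-11, had means of 13.61 and 12.98, and mlt-11 gave 13.45, 13.62, 11.32 and 13.54.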

How the data were processed

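RNA of 4 N2 early embryo preparations was measured on single-color NimbleGen expression arrays. The authors quantile normalized the arrays and combined the probes of each transcript by RMA, and deposited the result as linear intensities. A second deposited column (of another kind, SE_EXPRS, with no stated meaning) was not used. The sources used here do not give the software version, the annotation of the array or its build. The methods give a DNase step for some of the samples and the labels for all 4, so values were not divided by it. The series table repeats the per-sample intensities (0 of 92720 values differed).

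Intensities were converted to log2 with no pseudocount or filter, and transcripts of one gene were averaged (23180 transcripts, 20040 genes, 19380 with a symbol). Of the collagens, 7 had more than 1 transcript. Symbols, chromosomes and gene order were read from RefSeq's gene table for assembly WBcel235, whose start coordinates served only to order the genes. Each sample was set against the others gene by gene, with counts given beside those over all genes. No sequence is shown, since no protein or promoter table was used here, so the planned description of protein features was not made. Scripts in Python 3.11.15 (numpy 2.4.6, pandas 2.3.3, matplotlib 3.10.9) were tested on simulated data. The simulated noise was smaller than the median SD of these samples, so the test checked the code and not the calls made here.

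The collagens, the other gene lists and the comparisons were chosen with earlier results of these data known. Genes named are all 18 phenotype-named collagens, the 12 highest and 5 lowest col genes, those above the reference level, a few textbook col genes (col-1 had no entry) and members of the lists. Collagens over 2-fold apart in 1 sample, or in 1 or 2 samples above the level, were named after their values were seen. Alternatives were leaving out each replicate, other percentiles, folds and summaries, a pseudocount and renewed quantile normalization.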

Additional observations from a re-analysis of the deposited data

Results flagged for a closer look

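In 18 of 126 genes of the lists above, 1 sample lay far from the other 3, its gap to the nearest taking up most of the range. Chance alone gives this in about 1 in 20 groups of this size. Over all 176 collagens the count was 19 (10.8%), against 7.88% of all 20040 genes. Of the 18, 16 were set apart by replicate 3.

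Among collagens, replicate 3 was low for sqt-3 (11.66), col-76 (9.89), col-99 (9.37) and col-74 (8.35), and high for the roller pair sqt-1 (6.83) and rol-6 (6.27). Replicate 4 was high for col-10 (7.09).

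Outside the collagens, replicate 3 was low for the basement membrane collagen let-2 (10.69), the cuticlin cut-5 (6.15), the matrix genes noah-2 (13.05), fbn-1 (12.13), dex-1 (10.31) and vab-10 (11.50), the epidermal genes elt-3 (10.99) and ajm-1 (10.65), and the molting gene mlt-11 (11.32). It was high for gsp-3 (10.90), a sperm phosphatase gene. Replicate 1 was high for the intestinal actin act-5 (9.21). All values are log2 intensities.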

How the results depend on the processing

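No paired analysis was possible because there is only 1 group of samples. The collagens above the reference level numbered 11 to 14 when each replicate was left out. Without replicate 3 they were 14 (42.8% of all genes), adding dpy-2, dpy-3 and col-74. They numbered 19 at the 95th percentile, 9 at the 99th and 15 when 3 samples sufficed, against 46.4%, 38.4% and 44.4% of all genes. The median collagen stayed at 5.68 to 5.81 without single replicates and was 6.12 with a pseudocount of 16. The collagens spanning over 2-fold (103) numbered 46 to 90 when a replicate was left out, with 46 against 15.5% of all genes without replicate 4. They numbered 18 at 4-fold (5.84% of all genes) and 5 among those above the reference level. At 1.5-fold the pairs 1 and 2, 1 and 3, 1 and 4, 2 and 3, and 2 and 4 held 36, 60, 89, 80 and 83 collagens, against 15.1%, 27.8%, 33.6%, 29.2% and 33.2% of all genes. With the pseudocount they held 4, 16, 31, 14 and 27, against 1.22%, 5.05%, 11.4%, 5.61% and 11.2%. The pair 3 and 4 held 99 collagens at 1.5-fold and 52 with the pseudocount, against 41.7% and 15% of all genes. Above the reference level the 6 pairs, ending with 3 and 4, held 0, 3, 1, 2, 0 and 4 of 11, against 0.297%, 3.47%, 0.962%, 3.73%, 0.926% and 5.72%. Median deviations in replicates 3 and 4 became -0.45 and 0.25 above that level. Fewer genes are counted above that level, and the share of all genes also falls there in each of the 6 pairs. The pseudocount shrinks differences of low genes by construction. The highest transcript, the series table and renewed quantile normalization moved none of these counts by over 1.5 times. Of 615 recomputed values of single genes, 15 moved by more than the SD over the samples. Of these 615, 287 were differences of replicate 3 from the other samples, and 10 of them changed sign, none of which was over 2-fold. The widest was dpy-8, from -0.51 to 0.43 without replicate 4. The alternative without nearly identical collagens was not run. Leaving out a replicate gives no separate value for a pair.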
